A study of Mus musculus with 6 samples.

Results

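The 43 genes described here encode the proteins that license replication origins and copy DNA at the fork. They were taken by name and role, and all 43 were found among the 55487 gene rows of the count table. RNA was measured in sorted megakaryocyte-erythroid progenitors, the marrow cells from which red cells and platelets derive, to see how fasting bears on red cell production. All 6 libraries came from wild-type C57BL/6 mice aged 8 weeks, 3 from mice fasted for 6 h and 3 from control mice. The labels do not say whether a library holds 1 mouse or a pool, which surface markers defined the sort, or how the control mice were kept, and the extraction protocol they give is written for ground tissue. The p-values therefore measure only the spread between these libraries. Coordinates given with each gene are those of GENCODE M21 on GRCm38.

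Before a cell copies its DNA, the origin recognition complex (Orc subunits) with Cdc6 and Cdt1 loads a ring-shaped helicase, built of Mcm2 to Mcm7, onto origins, a step called licensing. The kinase Cdc7 with its activator Dbf4 then helps to switch the helicase on together with Cdc45 and the GINS complex, and a DNA polymerase machine with the sliding clamp PCNA follows each unwound fork. Most of these genes are transcribed at the start of S phase by E2F transcription factors, and progenitors of the red cell lineage divide rapidly.

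Gene counts per library ranged from 22445970 to 30246110 in the control group and from 12797144 to 18225191 in the fasted group. Odorant and vomeronasal receptor genes, largely silent in blood cells, served as a gauge of background. These 1466 genes received 8.99 to 14.7 counts per kilobase in control and 14.2 to 16.0 in fasted libraries, although the fasted libraries were shallower. Tests were therefore run on the 10927 genes whose mean count reached at least 5 times this background, scaled by edgeR's TMM factors over those genes. Values are counts per 1000000 (CPM) of each library's total in those genes multiplied by its TMM factor. All 43 replication genes passed this filter, so none was lost to it. Background at the receptor rate would account for 0.201% of the Mcm6 counts in control libraries at the low end and 20.4% of the Fen1 counts in fasted libraries at the high end. Of the defining genes of the labelled cell type, Gata1 ranged from 158 to 391 CPM, Klf1 from 239 to 699.7 CPM and Epor from 44.3 to 148 CPM over the 6 libraries.

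As a group the replication genes had lower values in fasted than in control libraries, by a modest amount, and no single gene passed the test across all genes. The log2 fold change of fasted over control was below 0 for 40 of the 43 genes, against 47.6% of all tested genes, and the median was -0.26 against 0.03 over all tested genes. Groups that did not overlap, with every fasted library below every control library, were seen for 20 of the 43, against 13.0% of all tested genes, and no gene of the list had the opposite separation. In edgeR's quasi-likelihood test, 0 of the 43 had a Benjamini-Hochberg adjusted p under 0.05, as did 0.00% of all tested genes. An unadjusted p under 0.05 with a lower fasted value was found for 16 of the 43, against 8.34% of all tested genes. DESeq2 on the same genes called 4 of the 43 lower (Mcm3, Mcm6, Rfc2 and Rpa1) and 0 higher, where it called 1.64% of all tested genes lower and 3.01% higher.

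The fold changes moved with the scaling. When all 36508 genes that pass edgeR's filterByExpr were scaled and tested, 21 of the 43 passed as lower (3.82% of all genes tested there) and 0 as higher (1.15%), and the median of the 43 was -0.80. Well-expressed genes, those reaching 5 times the background, themselves had a median of -0.50 in that fit, and 12.9% of them passed as lower. The median of the replication genes minus theirs was -0.30, and the same difference was -0.29 in the restricted fit. At 10 times the background, where 41 of the 43 were tested, it was -0.18. The 21 calls changed when single libraries were left out, as did the 1393 lower calls over all genes in that fit. Each such fit also has 1 library fewer, and how far that alone changes the calls was not tested. Without control 1, 2 or 3 in turn, 8, 0 and 38 of the 43 passed as lower. Over all genes 858 of 38248, 152 of 38168 and 3903 of 37917 did. Without fasted 1, 2 or 3 in turn, 0, 20 and 0 of the 43 passed as lower. Over all genes 93 of 38494, 1684 of 39471 and 7 of 38327 did. With scaling factors taken from the well-expressed genes, the same 36508 genes gave 0 of the 43 as higher (13.1% of all genes tested) and 6 as lower (0.723%): Mcm3, Mcm4, Mcm5, Mcm6, Rfc2 and Rpa1. In bulk RNA, fewer cells in S phase and less of these RNAs per cell cannot be told apart.

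**Figure D1:**
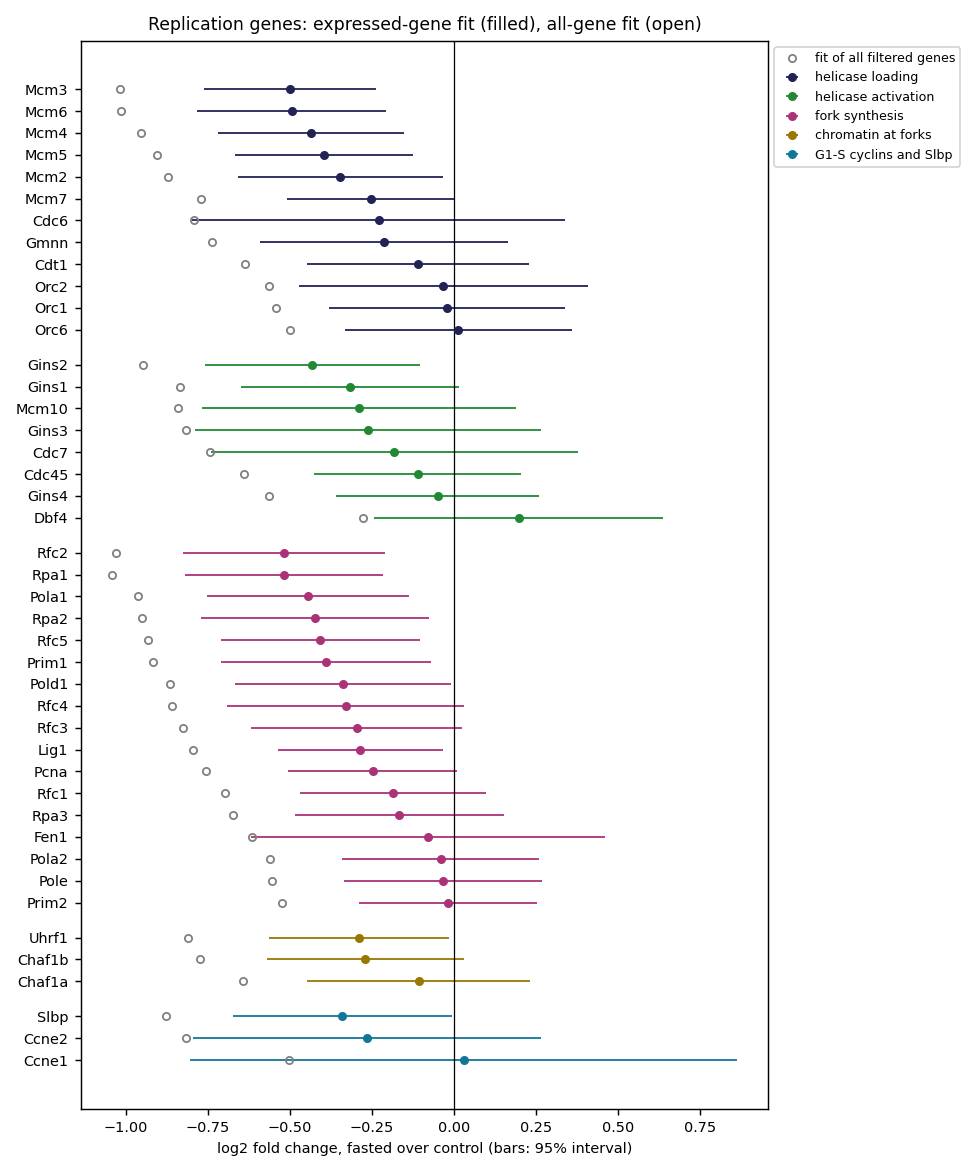
Log2 fold changes of the 43 genes by role, fasted over control, with their 95% intervals in the fit of genes at or above 5 times the background (filled) and the estimates of the fit over all filtered genes (open). Of the filled points 40 lie below 0 and 3 above it (Orc6, Dbf4 and Ccne1). These 3 are below 0 in the other fit, which places every gene lower.

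All 6 subunits of the replicative helicase were lower in fasted libraries. Mcm2 to Mcm7 each fill a position of the ring, and for all 6 every fasted library lay below every control library, with log2 fold changes from -0.50 to -0.25. Mcm3 (ENSMUSG00000041859.10, chromosome 1, 20802968 to 20820312, minus strand) had 753, 693 and 662 CPM in controls 1 to 3 against 513, 502 and 476 CPM in fasted 1 to 3, for a log2 fold change of -0.50 (SE 0.12). EdgeR gave it an adjusted p of 0.136. Its 3 control values lie close together and its 3 fasted values closer still, so the gap between the groups exceeds the spread within either. Mcm6 (ENSMUSG00000026355.11, chromosome 1, 128331590 to 128359664, minus strand), the most abundant of the 43 per kilobase of exon, had 1443, 1229 and 1202 CPM in controls 1 to 3 against 913, 968 and 868 CPM in fasted 1 to 3, for a log2 fold change of -0.49 (SE 0.13). EdgeR gave it an adjusted p of 0.143. The highest fasted value is that of fasted 2, and it is still under the lowest control value. Both genes passed DESeq2, Mcm3 at an adjusted p of 0.0145 and Mcm6 at 0.0284.

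The other ring subunits showed the same order. Mcm4 (ENSMUSG00000022673.5, chromosome 16, 15623897 to 15637400, minus strand) had 429, 418 and 364 CPM in controls 1 to 3 against 269.8, 317 and 308 CPM in fasted 1 to 3, for a log2 fold change of -0.44 (SE 0.13). Mcm5 (ENSMUSG00000005410.6, chromosome 8, 75109569 to 75128439, plus strand) had 667, 692 and 646 CPM in controls 1 to 3 against 473, 559.5 and 491 CPM in fasted 1 to 3, for a log2 fold change of -0.40 (SE 0.12). In both the lowest library was fasted 1, the shallowest of the 6. Mcm2 (ENSMUSG00000002870.8, chromosome 6, 88883474 to 88898780, minus strand), whose amino terminus also binds histones, had 829, 719 and 631 CPM in controls 1 to 3 against 524, 615 and 576 CPM in fasted 1 to 3, for a log2 fold change of -0.35 (SE 0.14). Relative to their mean its control libraries spread most of the 6 subunits, and control 3 exceeds fasted 2 by a small margin. Mcm7 (ENSMUSG00000029730.16, chromosome 5, 138164583 to 138172422, minus strand), whose introns host the microRNAs Mir25 and Mir93, had 657, 664 and 596 CPM in controls 1 to 3 against 534, 527 and 547 CPM in fasted 1 to 3, for a log2 fold change of -0.25 (SE 0.11). The edgeR adjusted p of these 4 lay between 0.152 and 0.255, with Mcm7 the highest. In the fit of all filtered genes all 6 subunits passed, at edgeR adjusted p from 0.0325 to 0.0487.

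For the 5 genes of the list whose proteins bind origins or place the ring on DNA no separation of the groups was seen. In all 5 of Orc1, Orc2, Orc6, Cdc6 and Cdt1 the groups overlapped, the median log2 fold change was -0.03, and with all 6 libraries kept none passed in the restricted fit (smallest edgeR adjusted p 0.628), over all filtered genes (smallest 0.0820) or with DESeq2. With no filter on low counts Cdc6 passed as lower, at an edgeR adjusted p of 0.0464. Orc1 (ENSMUSG00000028587.18, chromosome 4, 108579423 to 108614833, plus strand), the largest subunit of the origin recognition complex, had 45.9, 39.8 and 40.4 CPM in controls 1 to 3 against 36.7, 42.5 and 45.2 CPM in fasted 1 to 3, for a log2 fold change of -0.02 (SE 0.16) with a 95% interval of -0.38 to 0.34. The highest control and the highest fasted library differ by less than 1 CPM. Orc2, another subunit, had 105, 106 and 78.3 CPM in controls 1 to 3 against 71.0, 98.5 and 114 CPM in fasted 1 to 3 and a log2 fold change of -0.03 (SE 0.20). Orc6 (ENSMUSG00000031697.12, chromosome 8, 85299632 to 85308278, plus strand), the smallest subunit, had 108, 129 and 99.0 CPM in controls 1 to 3 against 95.8, 119 and 124 CPM in fasted 1 to 3, for a log2 fold change of 0.01 (SE 0.15) with a 95% interval of -0.33 to 0.36. For Orc2 and Orc6 fasted 1 was the lowest library, and fasted 3 the highest fasted one, so the spread within the fasted group was wider than the distance between groups. The sign of Orc6 turned with the scaling, to -0.50 over all filtered genes and -0.0087 with RLE factors. Parts of the exonic bases of Orc2 (29.8%, Nif3l1), Orc1 (10.8%, Gm12743) and Orc6 (6.93%, Vps35) also lie in exons on the other strand. The strand setting of the counts is not given. Origin recognition subunits outside the 43 were not all alike. Orc3 had 151, 149 and 136 CPM in controls 1 to 3 against 105, 110 and 122 CPM in fasted 1 to 3, so its groups separate. Its log2 fold change was -0.37 (SE 0.12), at an edgeR adjusted p of 0.171 (0.0383 over all filtered genes). Orc4 (-0.27) and Orc5 (0.30) overlapped between groups.

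Cdc6 and Cdt1 are the loaders that S phase and ubiquitin ligases keep under tight control. Cdc6 (ENSMUSG00000017499.15, chromosome 11, 98907801 to 98923940, plus strand) had 216, 156 and 110.4 CPM in controls 1 to 3 against 114, 127 and 172 CPM in fasted 1 to 3, for a log2 fold change of -0.23 (SE 0.25) with a 95% interval of -0.80 to 0.34. Control 1 alone stands high, and without it the log2 fold change was 0.042. Cdt1 (ENSMUSG00000006585.3, chromosome 8, 122568015 to 122573554, plus strand) had 156, 157 and 122 CPM in controls 1 to 3 against 118, 134 and 151 CPM in fasted 1 to 3, for a log2 fold change of -0.11 (SE 0.15). Gmnn (ENSMUSG00000006715.11, chromosome 13, 24751845 to 24761923, minus strand), which encodes geminin, the inhibitor that binds Cdt1 and blocks a second round of loading, had 113, 119 and 95.3 CPM in controls 1 to 3 against 75.0, 97.1 and 111 CPM in fasted 1 to 3, for a log2 fold change of -0.21 (SE 0.17). In Cdt1 and Gmnn fasted 1 was the lowest library and fasted 3 lay within the control range.

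**Figure D2:**
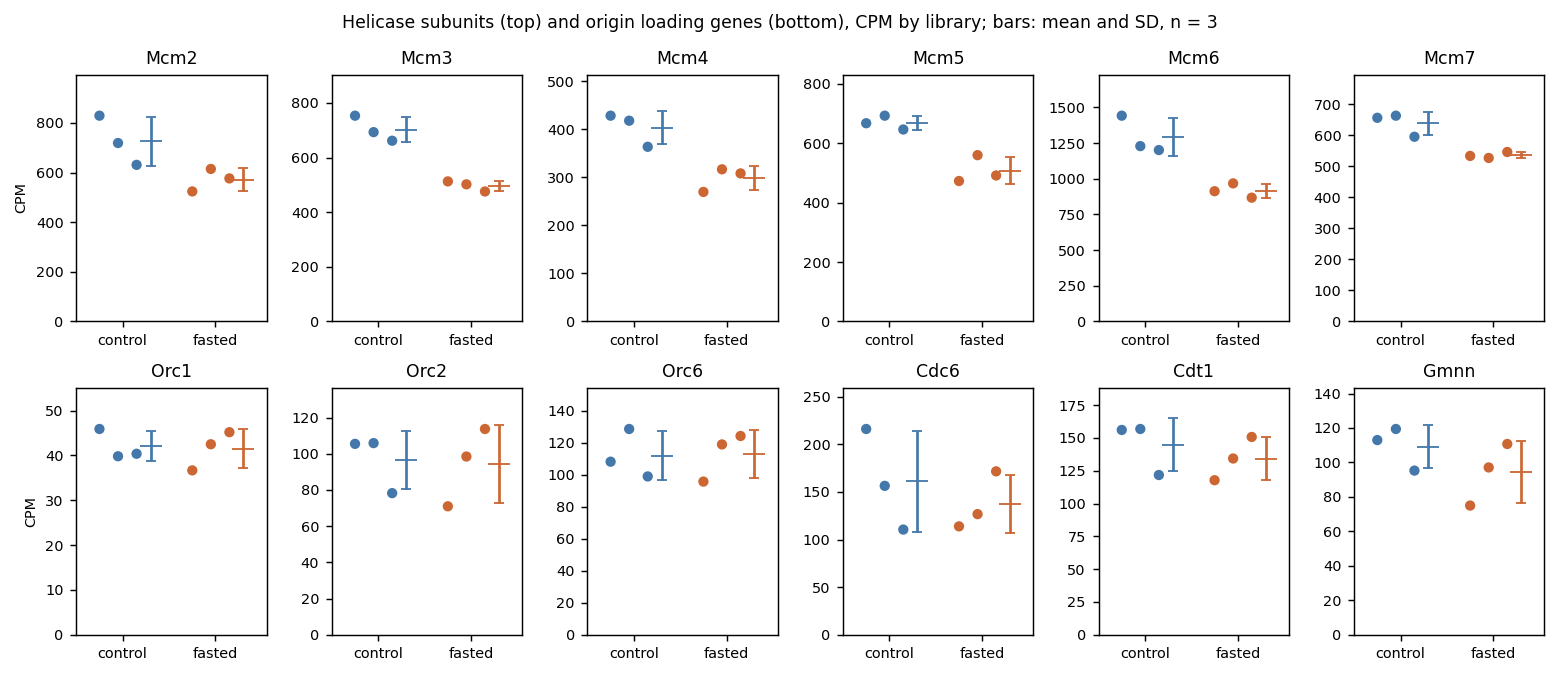
CPM in each library for the 6 helicase subunits (top row) and for the origin binding, loading and geminin genes of the list (bottom row), with points for replicates 1, 2 and 3 from left to right and the mean with SD (n = 3) beside them. In the top row all fasted points lie below all control points, and in the bottom row the groups overlap.

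Ring and loaders can also be set against each other within each library, where no scaling enters. Summed counts of Mcm2 to Mcm7 divided by those of Orc1, Orc2, Orc6, Cdc6 and Cdt1 gave 7.56, 7.52 and 9.11 in controls 1 to 3 against 7.42, 6.70 and 5.39 in fasted 1 to 3. The mean was 8.06 ± 0.910 (SD, n = 3) in control and 6.50 ± 1.02 (SD, n = 3) in fasted libraries. The groups separate by the gap between control 2 and fasted 1, which is smaller than the spread inside either group, and the ratio was chosen after the values were seen, so it carries no test. Background was left in these counts and weighs more on the loaders. It would make up 4.57% of Orc1 counts in control and 9.54% in fasted libraries, against 0.201% and 0.573% for Mcm6. Subtracting the receptor rate over the exons of these genes would place fasted 1 above controls 1 and 2, so the groups would then overlap. Orc3 to Orc5 are not among the loaders summed. The 6 subunits took 43.0% ± 0.865 (SD, n = 3) of the counts of all 43 genes in control and 40.5% ± 1.28 (SD, n = 3) in fasted libraries.

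Promoter sequences are shown for Mcm3, Mcm5 and Mcm6, whose groups separated, and for Orc1 and Cdc6, whose groups overlapped, because E2F-type words occur in both kinds. RefSeq windows of GRCm38.p6, from 250 bases before to 50 bases after an annotated start, were found for 34 of the 43 genes (the other 9 are Ccne2, Gins1, Gins2, Gins4, Gmnn, Mcm4, Pole, Prim2 and Rfc2). They were searched on both strands for 4 words of 8 bases that match the E2F consensus, TTTCCCGC, TTTCGCGC, TTTGCCGC and TTTGGCGC, where a word on one strand can overlap another on the opposite strand. The RefSeq starts can differ from those of M21. The Cdc6 window lies wholly inside the M21 gene, as do the windows of Lig1, Mcm7 and Uhrf1 that hold a word. Capitals mark the words in either orientation, and each sequence reads 5′ to 3′ along the gene's strand.
Mcm3, chr1:20820263-20820562, minus strand: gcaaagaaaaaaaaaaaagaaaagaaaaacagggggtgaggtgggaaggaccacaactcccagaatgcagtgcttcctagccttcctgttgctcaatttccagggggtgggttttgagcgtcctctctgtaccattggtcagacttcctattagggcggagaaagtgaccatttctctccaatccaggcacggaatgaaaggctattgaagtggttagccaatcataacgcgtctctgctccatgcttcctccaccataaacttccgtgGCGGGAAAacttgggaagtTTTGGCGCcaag
Mcm5, chr8:75109259-75109558, plus strand: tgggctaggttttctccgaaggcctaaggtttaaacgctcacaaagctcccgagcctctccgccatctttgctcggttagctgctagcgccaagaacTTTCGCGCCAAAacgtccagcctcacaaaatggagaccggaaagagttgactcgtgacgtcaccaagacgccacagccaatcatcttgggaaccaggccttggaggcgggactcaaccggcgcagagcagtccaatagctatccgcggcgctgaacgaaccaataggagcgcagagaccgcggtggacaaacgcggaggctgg
Mcm6, chr1:128359656-128359955, minus strand: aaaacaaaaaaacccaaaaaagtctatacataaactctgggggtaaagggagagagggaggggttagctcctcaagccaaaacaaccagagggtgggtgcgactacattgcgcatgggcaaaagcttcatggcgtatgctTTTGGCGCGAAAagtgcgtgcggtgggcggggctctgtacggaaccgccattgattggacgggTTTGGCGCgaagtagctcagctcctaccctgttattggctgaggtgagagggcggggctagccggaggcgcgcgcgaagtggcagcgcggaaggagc
Orc1, chr4:108579204-108579503, plus strand: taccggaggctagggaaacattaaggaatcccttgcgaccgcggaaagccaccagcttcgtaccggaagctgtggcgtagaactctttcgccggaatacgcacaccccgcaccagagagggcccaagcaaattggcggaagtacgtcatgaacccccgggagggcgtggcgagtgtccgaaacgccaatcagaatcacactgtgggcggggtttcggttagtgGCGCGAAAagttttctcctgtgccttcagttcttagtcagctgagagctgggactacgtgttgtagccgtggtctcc
Cdc6, chr11:98907901-98908200, plus strand: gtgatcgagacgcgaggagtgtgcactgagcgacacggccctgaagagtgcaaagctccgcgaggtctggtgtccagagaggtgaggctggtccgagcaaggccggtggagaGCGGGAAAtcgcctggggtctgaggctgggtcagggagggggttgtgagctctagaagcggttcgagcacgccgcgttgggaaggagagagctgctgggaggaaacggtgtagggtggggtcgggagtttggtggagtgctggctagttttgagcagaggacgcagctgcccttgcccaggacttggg

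At least 1 of the 4 words was present for 13 of the 34 genes (38.2%), against 2.61% of the 27025 genes in the promoter table. In Mcm5 and in Mcm6 a pair of words on opposite strands overlap to form 1 longer stretch, and Mcm6 holds a further word nearer the start. Among matched genes whose groups did not overlap, 9 of 16 had a word, and among the others 4 of 18. The CCAAT box, searched as CCAAT on both strands, was present for 22 of the 34 genes (64.7%), against 41.1% of all genes in the table. A matching word is not a measured binding site, and a window without one says only that these letters are not in it.

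**Figure D3:**
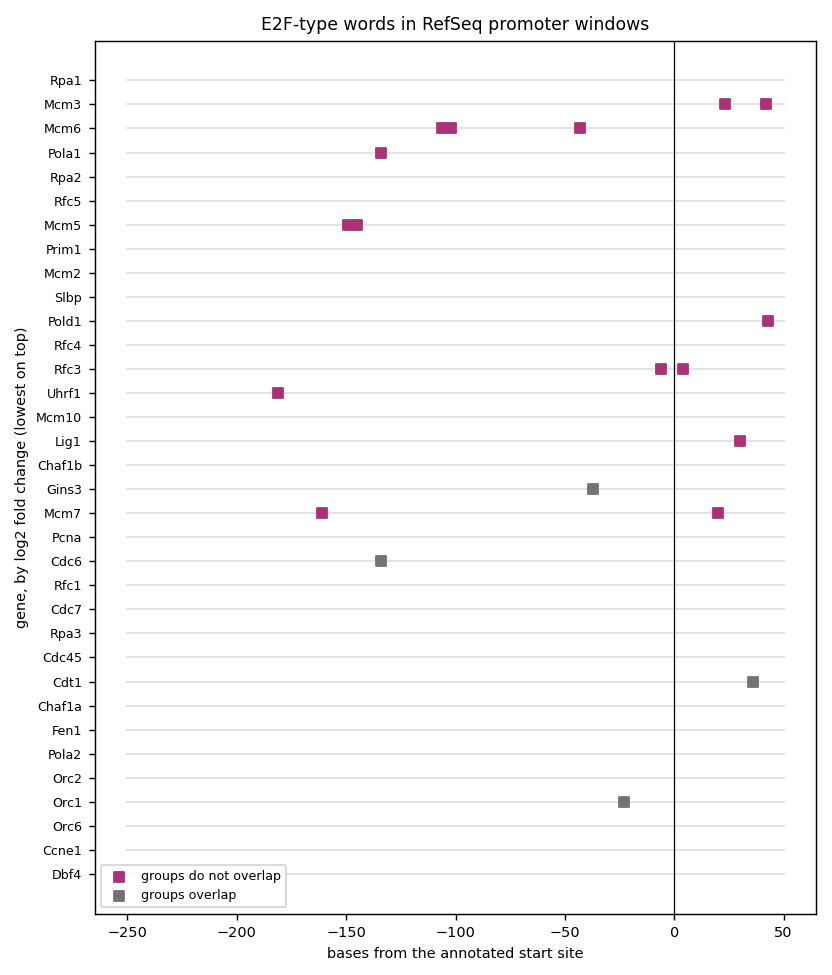
Position of E2F-type words relative to the annotated start (0) in the promoter windows of 34 genes, ordered by log2 fold change with the lowest on top, and with all start sites of a gene drawn on 1 line. Purple marks genes whose groups did not overlap (9 of 16 with a word) and grey the others (4 of 18).

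Most helicase activation genes had slightly lower values in fasted libraries. Of the 8, the log2 fold change was below 0 for 7 with a median of -0.22. The groups did not overlap for 2, both lower, where 13.0% of all tested genes separated that way. None passed in the restricted fit (smallest edgeR adjusted p 0.172). Over all filtered genes 2, Gins1 and Gins2, passed as lower, where 12.9% of well-expressed genes did. Both genes belong to GINS, the 4-subunit complex that joins Cdc45 and the ring to form the active helicase. Gins2 (ENSMUSG00000031821.11, chromosome 8, 120578633 to 120589304, minus strand) had 68.7, 80.4 and 62.5 CPM in controls 1 to 3 against 52.3, 52.1 and 52.6 CPM in fasted 1 to 3, for a log2 fold change of -0.43 (SE 0.15). Its 3 fasted libraries are nearly equal, but 67.3% of its exonic bases also lie in exons of Gse1 on the opposite strand. Whether counting used strand is not given in the sources used here. Gins1 (ENSMUSG00000027454.10, chromosome 2, 150905400 to 150931280, plus strand) had 49.3, 48.8 and 46.8 CPM in controls 1 to 3 against 37.7, 36.6 and 42.1 CPM in fasted 1 to 3, for a log2 fold change of -0.32 (SE 0.15). The other GINS subunits overlapped between groups. Gins3 had 39.4, 29.9 and 22.2 CPM in controls 1 to 3 against 25.7, 22.4 and 28.4 CPM in fasted 1 to 3 and a log2 fold change of -0.26 (SE 0.23). Gins4 had 116, 115 and 97.9 CPM in controls 1 to 3 against 95.3, 118 and 105 CPM in fasted 1 to 3 and a log2 fold change of -0.05 (SE 0.14). Gins3 was highest in control 1, and Gins4 was highest in fasted 2.

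Cdc45 (ENSMUSG00000000028.15, chromosome 16, 18780447 to 18811987, minus strand), the partner of GINS, had 88.5, 77.7 and 69.4 CPM in controls 1 to 3 against 71.0, 70.6 and 76.8 CPM in fasted 1 to 3, for a log2 fold change of -0.11 (SE 0.14). Mcm10, which helps to start unwinding, had 139.5, 135 and 84.2 CPM in controls 1 to 3 against 89.9, 85.8 and 118 CPM in fasted 1 to 3 and a log2 fold change of -0.29 (SE 0.21). The catalytic kinase Cdc7 had 109.8, 65.8 and 58.4 CPM in controls 1 to 3 against 57.6, 66.9 and 81.9 CPM in fasted 1 to 3 and a log2 fold change of -0.18 (SE 0.25). Control 1 exceeds every other library for Cdc7, and without it the log2 fold change was 0.15. Dbf4 (ENSMUSG00000002297.16, chromosome 5, 8396973 to 8422716, minus strand), the activating subunit of that kinase, had 32.9, 45.2 and 52.8 CPM in controls 1 to 3 against 48.5, 55.3 and 46.2 CPM in fasted 1 to 3, for a log2 fold change of 0.20 (SE 0.20), the highest of the 43. Control 1 was the lowest library for Dbf4, the reverse of Cdc7. Background would make up 10.5% of Dbf4 counts in control and 19.8% in fasted libraries, and its sign was negative (-0.28) over all filtered genes.

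All 17 genes of the fork machinery had log2 fold changes below 0, and the groups did not overlap for 10 of them, where 13.0% of all tested genes separated in this direction. Their median was -0.30, and none passed in the restricted fit (smallest edgeR adjusted p 0.143), while 11 passed over all filtered genes, where 3.82% of all genes and 12.9% of well-expressed genes did. Of all 43, none passed there without control 2, fasted 1 or fasted 3, when 152, 93 and 7 of all genes passed as lower. Pcna (ENSMUSG00000027342.14, chromosome 2, 132249162 to 132253314, minus strand) encodes the ring-shaped clamp that holds polymerases on DNA and had 345, 378 and 354 CPM in controls 1 to 3 against 282, 317 and 308 CPM in fasted 1 to 3, for a log2 fold change of -0.25 (SE 0.11). Every fasted library is under every control library, by the margin between control 1 and fasted 2. Reads can also fall on the processed copy Pcna-ps2, which had 103 to 232 counts per library.

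Replication factor C loads that clamp, and 3 of its 5 subunit genes separated the groups. Rfc2 (ENSMUSG00000023104.9, chromosome 5, 134581366 to 134601805, plus strand) had 564, 502 and 512 CPM in controls 1 to 3 against 407, 385 and 309.5 CPM in fasted 1 to 3, for a log2 fold change of -0.52 (SE 0.14). EdgeR gave it an adjusted p of 0.144. Fasted 3 is the lowest library, and Rfc2 shares 15.1% of its exonic bases with Lat2 on the other strand. Rfc5 (ENSMUSG00000029363.14, chromosome 5, 117378103 to 117389047, minus strand) had 317, 303 and 243 CPM in controls 1 to 3 against 202, 227 and 222 CPM in fasted 1 to 3, for a log2 fold change of -0.41 (SE 0.13). Rfc3 (ENSMUSG00000033970.15, chromosome 5, 151642756 to 151651242, minus strand) had 91.7, 90.2 and 78.3 CPM in controls 1 to 3 against 74.1, 61.7 and 76.3 CPM in fasted 1 to 3, for a log2 fold change of -0.30 (SE 0.14). Both separate, Rfc3 by about 2 CPM. Rfc4 (ENSMUSG00000022881.15, chromosome 16, 23113943 to 23127737, minus strand) had 158, 142 and 122 CPM in controls 1 to 3 against 91.0, 119.6 and 125 CPM in fasted 1 to 3, for a log2 fold change of -0.33 (SE 0.16). The large subunit Rfc1 (ENSMUSG00000029191.16, chromosome 5, 65261850 to 65335670, minus strand) had 127, 114 and 135 CPM in controls 1 to 3 against 108, 104 and 118 CPM in fasted 1 to 3, for a log2 fold change of -0.19 (SE 0.13). For Rfc1 and Rfc4 fasted 3 lay above the lowest control library, so their groups overlap.

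RPA is the trimer that coats single-stranded DNA behind the helicase. Rpa1 (ENSMUSG00000000751.13, chromosome 11, 75298166 to 75348324, minus strand), its large subunit, had 392, 342 and 302 CPM in controls 1 to 3 against 229, 262 and 232 CPM in fasted 1 to 3, for a log2 fold change of -0.52 (SE 0.13). EdgeR gave it an adjusted p of 0.143, and DESeq2 called it at an adjusted p of 0.0393. Even the highest fasted value, that of fasted 2, is under the lowest control value. Rpa2 (ENSMUSG00000028884.14, chromosome 4, 132768332 to 132778752, plus strand), the middle subunit, had 292, 258 and 225 CPM in controls 1 to 3 against 159, 204 and 216 CPM in fasted 1 to 3, for a log2 fold change of -0.42 (SE 0.15). Rpa3, the smallest subunit, had 58.6, 66.9 and 58.8 CPM in controls 1 to 3 against 50.2, 58.6 and 55.4 CPM in fasted 1 to 3 and a log2 fold change of -0.17 (SE 0.14). Control 1 and fasted 2 are nearly equal for Rpa3, so its groups overlap.

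Polymerase alpha and primase start each new strand, and their 4 genes split evenly. The catalytic subunit gene Pola1 (ENSMUSG00000006678.6, chromosome X, 93304767 to 93632155, minus strand) had 149, 116 and 129.7 CPM in controls 1 to 3 against 97.3, 103 and 89.5 CPM in fasted 1 to 3, for a log2 fold change of -0.44 (SE 0.14). The small primase subunit gene Prim1 (ENSMUSG00000025395.14, chromosome 10, 128015168 to 128030037, plus strand) had 208, 176 and 155 CPM in controls 1 to 3 against 125, 148 and 138 CPM in fasted 1 to 3, for a log2 fold change of -0.39 (SE 0.14). Both separate the groups, while their partners in the same complex do not. The accessory subunit gene Pola2 had 229, 208 and 190.4 CPM in controls 1 to 3 against 176, 218 and 216 CPM in fasted 1 to 3 and a log2 fold change of -0.04 (SE 0.13). The large primase subunit gene Prim2 (ENSMUSG00000026134.11, chromosome 1, 33453810 to 33669795, minus strand) had 128, 143 and 133 CPM in controls 1 to 3 against 122, 139 and 136 CPM in fasted 1 to 3, for a log2 fold change of -0.02 (SE 0.12) with a 95% interval of -0.29 to 0.25. Pola2 and Prim2 turned to 0.030 and 0.055 with library totals in place of TMM factors.

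Polymerases delta and epsilon extend the strands, and among the 43 each is represented by its catalytic subunit. Pold1 (ENSMUSG00000038644.14, chromosome 7, 44532746 to 44548849, minus strand), the catalytic subunit of the lagging-strand polymerase delta, had 355, 294 and 254 CPM in controls 1 to 3 against 244, 253 and 218 CPM in fasted 1 to 3, for a log2 fold change of -0.34 (SE 0.15). Its groups separate by about 1 CPM, between control 3 and fasted 2. Pole (ENSMUSG00000007080.14, chromosome 5, 110286306 to 110337474, plus strand), the catalytic subunit of the leading-strand polymerase epsilon, had 109, 116 and 102 CPM in controls 1 to 3 against 100.5, 97.7 and 121 CPM in fasted 1 to 3, for a log2 fold change of -0.03 (SE 0.13) with a 95% interval of -0.34 to 0.27. Lig1 (ENSMUSG00000056394.17, chromosome 7, 13277283 to 13311433, plus strand), the ligase that seals Okazaki fragments, had 244, 270.2 and 241 CPM in controls 1 to 3 against 201, 210.2 and 208 CPM in fasted 1 to 3, for a log2 fold change of -0.29 (SE 0.11). All 3 fasted values of Lig1 fall within 10 CPM of each other, below the control range. Fen1, the nuclease that trims Okazaki fragments, had 17.6, 14.0 and 11.3 CPM in controls 1 to 3 against 11.8, 14.7 and 14.1 CPM in fasted 1 to 3 and a log2 fold change of -0.08 (SE 0.24). Its counts are low, and 78.8% of its exonic bases lie in exons of Gm10143 on the other strand, so its level is uncertain.

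Genes that rebuild chromatin behind the fork gave 3 log2 fold changes below 0. Uhrf1 (ENSMUSG00000001228.14, chromosome 17, 56303321 to 56323486, plus strand), which brings the maintenance DNA methyltransferase to newly copied DNA, had 365, 381 and 319 CPM in controls 1 to 3 against 307, 273 and 293 CPM in fasted 1 to 3, for a log2 fold change of -0.29 (SE 0.12). Chaf1b (ENSMUSG00000022945.12, chromosome 16, 93883901 to 93906115, plus strand), a subunit of the histone chaperone CAF-1, had 177, 169 and 166 CPM in controls 1 to 3 against 133, 164 and 127 CPM in fasted 1 to 3, for a log2 fold change of -0.27 (SE 0.13). These 2 separate the groups, Chaf1b by about 1 CPM between control 3 and fasted 2. Chaf1a (ENSMUSG00000002835.9, chromosome 17, 56040439 to 56072289, plus strand), the large subunit of CAF-1, had 117, 110.4 and 83.4 CPM in controls 1 to 3 against 94.2, 92.6 and 101 CPM in fasted 1 to 3, for a log2 fold change of -0.11 (SE 0.15). Of the exonic bases of Chaf1a, 52.5% also lie in exons of Ubxn6 on the other strand.

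The G1-S cyclins varied widely between libraries, and Ccne1 had the largest standard error of the list. Ccne1 (ENSMUSG00000002068.16, chromosome 7, 38097984 to 38107534, minus strand), the partner of the kinase Cdk2 at S phase entry, had 157, 227 and 93.8 CPM in controls 1 to 3 against 108, 177 and 203 CPM in fasted 1 to 3, for a log2 fold change of 0.03 (SE 0.35) with a 95% interval of -0.80 to 0.86. Control 2 was the highest and control 3 the lowest of all 6 libraries, and the interval is too wide to place the difference on either side of 0. The related cyclin gene Ccne2 (ENSMUSG00000028212.16, chromosome 4, 11191351 to 11204779, plus strand) had 59.3, 40.9 and 36.9 CPM in controls 1 to 3 against 30.4, 35.7 and 48.0 CPM in fasted 1 to 3, for a log2 fold change of -0.26 (SE 0.24). Slbp (ENSMUSG00000004642.13, chromosome 5, 33634952 to 33652574, minus strand), whose protein binds the stem-loop of replication-dependent histone messages, had 347, 274 and 249 CPM in controls 1 to 3 against 212, 224 and 251 CPM in fasted 1 to 3, for a log2 fold change of -0.34 (SE 0.15). Its only overlap is fasted 3 above control 3, by less than 2 CPM. Of the 3, Slbp passed over all filtered genes, at an edgeR adjusted p of 0.0437.

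**Figure D4:**
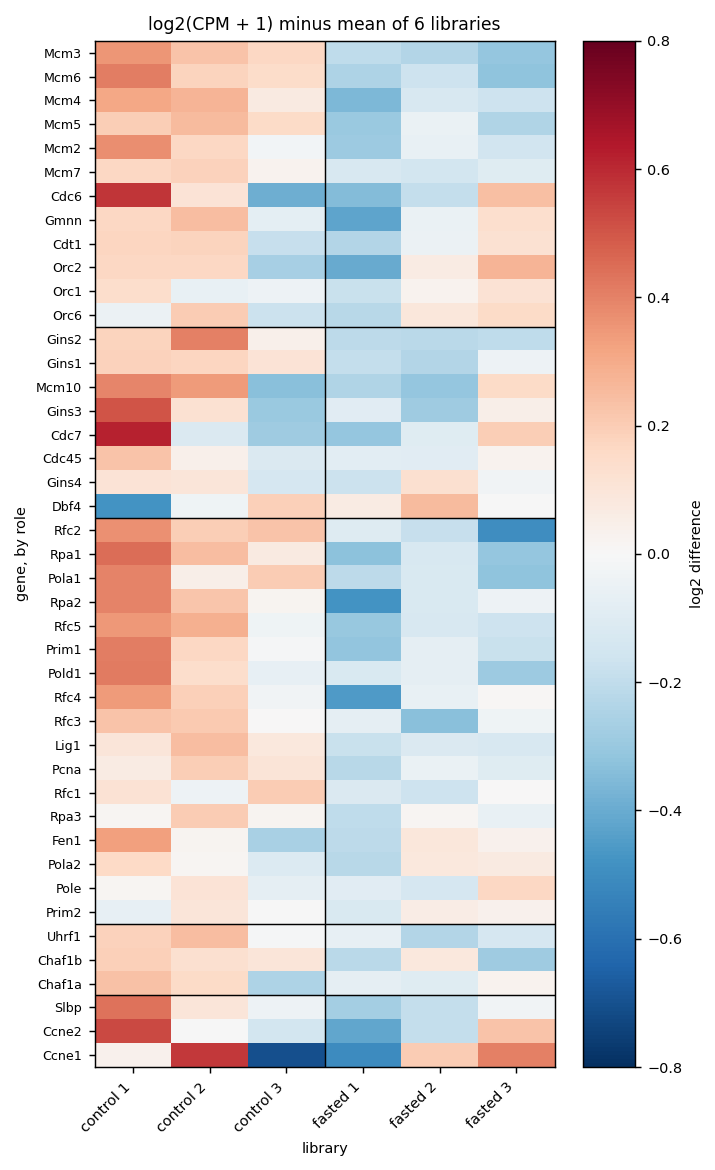
Log2(CPM + 1) of each gene minus its mean over the 6 libraries, in rows by role and in columns by library. Control 1 holds the highest value for 26 of the 43 genes and fasted 1 the lowest for 22.

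Levels per kilobase of exon placed the ring and the clamp at the top. Over the 6 libraries Mcm6 averaged 237 CPM per kilobase, Mcm3 159.9, Mcm5 147, Pcna 138 and Mcm7 133, so the first 5 places of the 43 were taken by 4 ring subunits and the clamp, with Mcm4 (97.8) and Mcm2 (93.3) next. At the other end were Dbf4 at 5.36, Fen1 at 5.75, Pole at 9.63 and Gins3 at 10.3 CPM per kilobase. The place of Fen1 is uncertain, since 78.8% of its exonic bases lie in exons of Gm10143 on the other strand. Mcm6 was the highest of the 43 in every library, whereas the order of Mcm3 and Mcm5, and that of Mcm4 and Mcm2, was not the same in every library.

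The libraries were not equal in their makeup, and these values stand beside all the results above. The 43 genes took 1.11%, 1.01% and 0.903% of the counts in tested genes in controls 1 to 3 against 0.817%, 0.824% and 0.886% in fasted 1 to 3. The 15 granulocyte and monocyte markers, all of them at or above 5 times the background, summed to 3900, 12869.7 and 19351 CPM in controls 1 to 3 against 4976, 3455 and 2078 CPM in fasted 1 to 3. The myeloid enzyme gene Mpo was at 2589, 7029.8 and 10895 CPM in controls 1 to 3 against 2726, 1637 and 570.1 CPM in fasted 1 to 3. Controls 2 and 3 lie above all fasted libraries in both measures, and control 1 lies inside the fasted range. Of the 43 replication genes, 26 were highest in control 1, 12 in control 2 and 1 in control 3. The median log2 fold change of the 43 was -0.20 without control 1, -0.29 without control 2 and -0.38 without control 3.

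Summed erythroid and megakaryocyte markers overlapped between the groups. Their 15 genes summed to 7692, 7796 and 4601 CPM in controls 1 to 3 against 6097, 7457 and 9023 CPM in fasted 1 to 3, and 12 of the 15 reached 5 times the background. Car1 and Car2 weigh most in this sum, at 1725 and 3649 CPM in control 1. Of the 12, 5 had a log2 fold change below 0 and 7 above. Only the megakaryocyte gene Pf4 separated, with 87.5, 98.9 and 85.4 CPM in controls 1 to 3 against 58.2, 61.0 and 29.5 CPM in fasted 1 to 3. Its log2 fold change was -0.87 (SE 0.25), at an edgeR adjusted p of 0.154 (0.0277 over all filtered genes). The 10 B and T lymphocyte markers summed to 75.9 to 124 CPM in control and 128 to 235 CPM in fasted libraries, with 4 of 10 at 5 times the background. The 8 mast cell, basophil and eosinophil markers summed to 214 to 295 CPM in control and 120.1 to 182 CPM in fasted libraries, and the 8 stem and multipotent progenitor markers to 749 to 986 and 505 to 921 CPM. Every marker had a count in every library, so none was at 0. The part of these differences, and of the difference in depth, in the values of the replication genes was not tested.

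**Figure D5:**
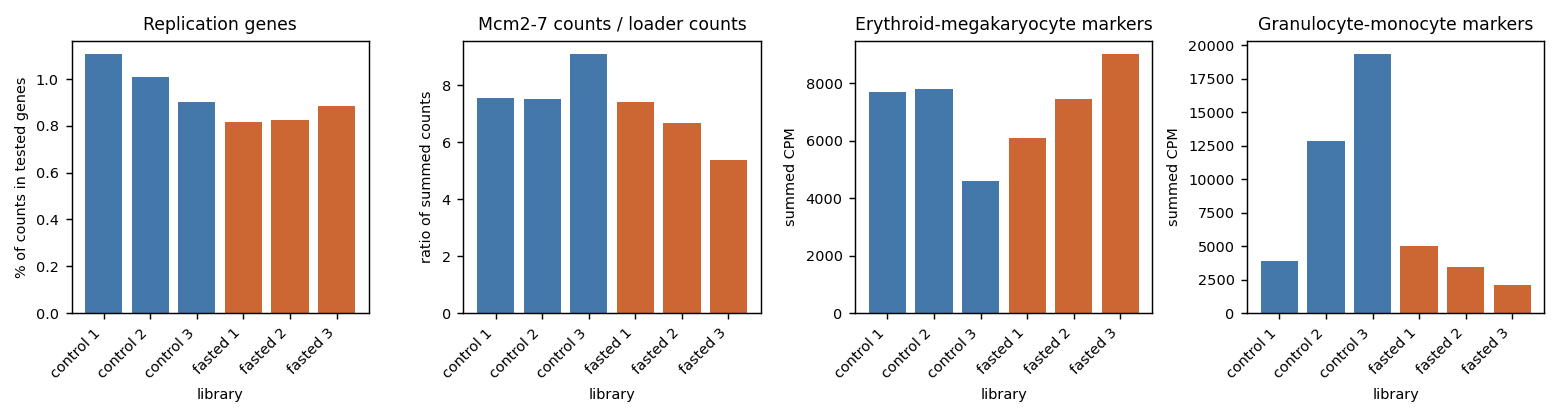
From left to right, by library: share of counts in tested genes taken by the 43 genes, summed Mcm2 to Mcm7 counts over summed loader counts, and summed CPM of the erythroid and megakaryocyte markers and of the granulocyte and monocyte markers. The share of the 43 genes is 0.903% or more in control and 0.886% or less in fasted libraries, while the granulocyte and monocyte sum of control 1 lies among the fasted libraries.

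Other genes of the replication machinery leaned the same way with more exceptions. Of 39 such genes, 37 were tested, 28 had a log2 fold change below 0, and the median was -0.17. The groups did not overlap for 11, all lower in fasted libraries, where 13.0% of all tested genes separated that way. None passed, and 10 passed as lower over all filtered genes (3.82% of all genes and 12.9% of well-expressed genes there). Mcmbp, whose protein binds Mcm subunits, had the lowest value, 231, 146 and 181 CPM in controls 1 to 3 against 125, 116 and 111 CPM in fasted 1 to 3, for a log2 fold change of -0.67 (SE 0.17). Dnmt1, the maintenance DNA methyltransferase that Uhrf1 recruits, had 430.4, 335 and 332 CPM in controls 1 to 3 against 235, 248 and 245 CPM in fasted 1 to 3, for a log2 fold change of -0.59 (SE 0.14). Both separate the groups clearly, as does Pclaf, a protein that binds PCNA, with 143, 172 and 187 CPM in controls 1 to 3 against 119, 124 and 101 CPM in fasted 1 to 3 and a log2 fold change of -0.55 (SE 0.15). The edgeR adjusted p of these 3 was 0.136, 0.136 and 0.144. At the other end Clspn, the gene of a fork checkpoint mediator, had 32.9, 39.2 and 36.1 CPM in controls 1 to 3 against 41.3, 38.4 and 58.7 CPM in fasted 1 to 3, for a log2 fold change of 0.36 (SE 0.20), and Recql4, a helicase-family gene, had 0.33 (SE 0.21). In both fasted 3 was the highest library and the groups overlap, and over all filtered genes their signs turned, to -0.17 and -0.20.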

How the data were processed

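Bulk poly(A) RNA-seq of sorted megakaryocyte-erythroid progenitors from 3 control and 3 fasted libraries was re-analysed. The deposited values are raw gene counts, which the authors made with HISAT2 2.2.1, featureCounts 2.0.1 and build GRCm38, per the submitters' processing notes. The annotation release, strand setting and read filters are not given in the sources used here. Gene identifiers matched GENCODE M21 with version for 54435 of 55487 rows, and without regard to version for 55227. No row lacked a gene identifier, and the rows without a match have no symbol here.

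The main comparison was edgeR 4.0.16's quasi-likelihood test in R 4.3.3, fasted against control with no covariates and Benjamini-Hochberg adjustment at 0.05, over the 10927 genes averaging at least 5 times a background rate. That rate was counts per exonic base in 1466 odorant and vomeronasal receptor genes. Fold changes are log2, fasted over control. Total counts per library ranged from 12797144 to 30246110, and the 3 libraries per group limit the precision. DESeq2 1.42.0, limma 3.58.1, other scalings, other background multiples, a replicate block and leaving out each library were alternatives. An exact permutation test of 3 against 3 libraries cannot go below a p of 0.10, so none is given. The tests were checked on simulated data.

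The members and gene lists were chosen with earlier results of these data known. Values in every library were to be given for members with separated groups or a call, the highest and lowest member of each role group, and 12 members listed by name. The remaining members were added. From other lists the highest and lowest gene were named. Dnmt1, Pclaf, Recql4, Orc3, Orc4, Orc5, Tfdp1, Tfdp2, E2f1, Umps, Mki67, Pf4, Car1 and Car2 were chosen after their values were seen. Promoter sequences came from RefSeq tables of GRCm38.p6.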

Additional observations from a re-analysis of the deposited data

How the results depend on the processing

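Calls changed with the genes tested, the scaling, the test and the libraries kept. The number of replication genes passing as lower was 0 as reported, 21 over all genes passing filterByExpr, 6 with factors from well-expressed genes over that same set, 27 with no filter, 4 with DESeq2 and 19 at 2 times the background. All genes called were 0 as reported (2182 at an unadjusted p under 0.05), and 1813, 5047, 2849, 508 and 1773 in the same order. These divided into 420 higher and 1393 lower, 4783 and 264, 631 and 2218, 329 and 179, and 521 and 1252. In 5 other alternatives 0 replication genes and 0 genes in all were called, as reported. They were RLE factors, library totals alone, limma-voom, background subtraction and 10 times the background. The median log2 fold change of the list was -0.80 over all filtered genes, -0.83 with no filter and -0.64 at 2 times the background. Its difference from the median of well-expressed genes was -0.29 as reported and, with all libraries kept, ranged from -0.31 with no filter to -0.18 at 10 times the background, where Dbf4 and Fen1 left the test. With 1 library left out it ranged from -0.37 without control 3 to -0.23 without control 1, and over all filtered genes from -0.37 to -0.22 for the same libraries. Leaving out each library gave 0 replication genes called, 0 to 3 genes called in all (3 without control 1 and 3 without control 3) and medians from -0.38 to -0.20, with 33 (without fasted 1) to 42 of the 43 below 0. In the fit over all filtered genes, leaving out each library was added after seeing the data. It gave 0 to 38 replication genes as lower (8, 0 and 38 without controls 1, 2 and 3, and 0, 20 and 0 without fasted 1, 2 and 3). All genes called were then 1364, 190, 5379, 105, 1837 and 7, with list medians of -0.62, -0.81, -0.97, -0.73, -0.90 and -0.81. With all libraries kept, 26 of 471 values of single members changed sign, and 31 members stayed below 0 throughout. Library totals gave Orc1 0.052, Orc2 0.040, Gins4 0.020, Pola2 0.030, Prim2 0.055 and Pole 0.044. At 10 times the background these were Orc1 0.065, Orc2 0.053, Gins4 0.036, Pola2 0.045, Prim2 0.066 and Pole 0.055. Background subtraction gave Orc2 0.0013, Gins4 0.0097 and Prim2 0.011. Orc6, Dbf4 and Ccne1 were -0.50, -0.28 and -0.50 over all filtered genes, -0.54, -0.31 and -0.54 with no filter, and -0.35, -0.14 and -0.34 at 2 times the background. Orc6 was -0.0087 with RLE factors and -0.0086 with DESeq2. Leaving out 1 library moved Orc1 from -0.10 to 0.060, Orc2 from -0.19 to 0.14, Orc6 from -0.091 to 0.12, Cdc6 from -0.47 to 0.042, Cdc7 from -0.38 to 0.15, Gins4 from -0.16 to 0.023, Pola2 from -0.13 to 0.05, Prim2 from -0.083 to 0.037, Pole from -0.13 to 0.0050, Fen1 from -0.25 to 0.10 and Ccne1 from -0.26 to 0.33. The cause of these moves was not tested. Deviations of same-numbered libraries correlated at -0.18, 0.14 and -0.36, which gives no clear sign that the numbers pair the samples. With 3 libraries per group these values cannot exclude it. With a replicate block 0 genes were called, 9 replication genes had an unadjusted edgeR p under 0.05, and the median of the 43 was -0.26. Depth limits the genes with the fewest counts, and Dbf4 and Fen1 lie nearest to the background.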

Other observations

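The regulators that act before these genes did not lean one way. Of 18 genes of the E2F and RB family, 17 were tested, 8 had a log2 fold change below 0 and 9 above, and the median was 0.06. Rbl1, which encodes the pocket protein p107, had the lowest value, -0.53 (log2, SE 0.15), and measured 121, 110.2 and 96.9 CPM in controls 1 to 3 against 71.0, 70.3 and 86.5 CPM in fasted 1 to 3. Tfdp1, the dimer partner of E2F proteins, was also lower in every fasted library, at -0.30 (log2, SE 0.12). E2f2, which limits the last divisions of red cell precursors, had the highest value, 0.71 (log2, SE 0.28), and measured 13.7, 28.5 and 19.2 CPM in controls 1 to 3 against 28.9, 42.0 and 29.6 CPM in fasted 1 to 3. Tfdp2, another dimer partner, was higher in every fasted library, at 0.32 (log2, SE 0.12), a sign that turned to -0.20 over all filtered genes. E2f1 measured 19.3, 20.6 and 26.6 CPM in controls 1 to 3 against 14.8, 20.9 and 18.0 CPM in fasted 1 to 3, so its groups overlap. None of these passed the edgeR test (smallest adjusted p 0.149). Over all filtered genes 2 of the 18 passed as lower, where 12.9% of well-expressed genes did.

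Genes of nucleotide supply and of mitosis leaned lower, as the replication genes did. Of 12 nucleotide supply genes, 10 were below 0, where 47.6% of all tested genes were, and the median was -0.23. The groups did not overlap for 5, all lower in fasted libraries (13.0% of all tested genes). The lowest was Shmt1, an enzyme of folate one-carbon metabolism, at -0.86 (log2, SE 0.22), with 147, 86.0 and 136 CPM in controls 1 to 3 against 83.5, 58.1 and 62.0 CPM in fasted 1 to 3. Umps, whose enzyme carries out the last steps of pyrimidine nucleotide (UMP) synthesis, measured 457, 325 and 361 CPM in controls 1 to 3 against 232, 253 and 252 CPM in fasted 1 to 3, at -0.63 (log2, SE 0.15). Cad, which starts that pathway, was the highest of the list at 0.27 (log2, SE 0.15). Its groups overlap, and its sign turned to -0.26 over all filtered genes. Of 24 tested G2 and M phase genes, 19 were below 0 with a median of -0.20. The groups did not overlap for 5, all lower, where 13.0% of all tested genes separated that way. Top2a, the topoisomerase that untangles sister DNA, was lowest at -0.60 (log2, SE 0.13), with 429.8, 363 and 341 CPM in controls 1 to 3 against 263, 248 and 237 CPM in fasted 1 to 3. Mki67, a widely used marker of cycling cells, was at 0.02 (log2, SE 0.15), with 193, 275 and 224 CPM in controls 1 to 3 against 219.7, 259 and 222 CPM in fasted 1 to 3. Its groups overlap, and it was at -0.47 over all filtered genes. None of these genes passed the edgeR test (smallest adjusted p 0.136), and over all filtered genes 6 nucleotide supply and 10 mitotic genes passed as lower, against the same 12.9%.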
